A study of Mus musculus with 24 samples.

Results

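Transcripts of 9 complement genes were followed in ID8 Trp53-/- cells, a mouse ovarian cancer line, after treatment with cisplatin, with AU-15330, a degrader of SMARCA4, or with the combination. The genes were the proteases C1s1, C1ra and C1rl, the components C4b, C3 and Cfb, and the regulators Serping1, Cd55 and Cd59a. They were selected by symbol, and these 9 are among 25229 genes in the deposited count table. Of them, 7 had enough counts to be tested, and Cfb and Cd59a did not.

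Each group held 6 libraries. All 4 groups were the same line, in which p53 is knocked out. All were sampled at day 6 of treatment, in DMEM with high glucose, FBS and insulin-transferrin-selenium. The groups received the vehicle DMSO, AU-15330 at 2.5 μM, cisplatin at 750 nM, or both drugs together. The vehicle cells therefore carry the same knockout as the treated cells, and a p53-proficient line was not part of these libraries. AU-15330 is a PROTAC, a molecule that brings its target to the cell's own protein degradation machinery. It also degrades SMARCA2, the paralog of SMARCA4, and losses of the 2 proteins cannot be told apart in these libraries. Cisplatin is a platinum drug that damages DNA and is used here to make the cells senescent. The comparisons ask how each drug changed complement transcripts, and how adding AU-15330 changed them in cells that had received cisplatin. Nothing in the labels says whether the replicates were separate cultures, so p-values measure the spread between these libraries, which may be partly technical.

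Complement is a cascade of plasma and membrane proteins that marks cells for clearance. In the classical pathway, C1r activates C1s, and C1s cleaves C4 and C2 to build an enzyme that cleaves C3; in the alternative pathway factor B supplies the protease of that enzyme. Host cells hold the cascade back with inhibitors such as C1 inhibitor, CD55 and CD59. The liver makes most of the circulating components, and epithelial and tumor cells also make some of them, often in response to inflammatory cytokines.

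Library totals ran from 17592588 to 25260009 counts, with a median of 21863798.5. Levels are given as CPM, a gene's counts scaled to the library's total with edgeR's TMM factors, and 3 counts in a library corresponded to 0.120 to 0.186 CPM. Differences are log2 fold changes with standard errors from edgeR's quasi-likelihood F test, fitted once to the 24 libraries over 12941 genes, and calls required an adjusted p (Benjamini-Hochberg, over these genes) under 0.05. In bulk RNA, fewer cells that express a gene and less RNA per cell cannot be told apart.

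Of the 7 tested genes, 6 were called with AU-15330, and these fell into sets that moved in opposite directions. C4b was not called in this comparison. AU-15330 raised C1ra and C1rl and lowered C1s1, C3, Serping1 and Cd55, and these 6 genes moved in the same directions, together with a fall of C4b, when it was added to cisplatin. Cisplatin alone raised C1s1, C3, C4b and Serping1. Among C1s1, C1ra, C1rl, C3 and Cd55, the tested genes with counts in every library, C3 covered the widest span, with a mean 111-fold higher in cisplatin-treated cells than in AU-15330-treated cells. C1s1 covered 13.7-fold, Cd55 21.6-fold, C1rl 4.23-fold and C1ra 2.85-fold between their highest and lowest group means.

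**Figure D1:**
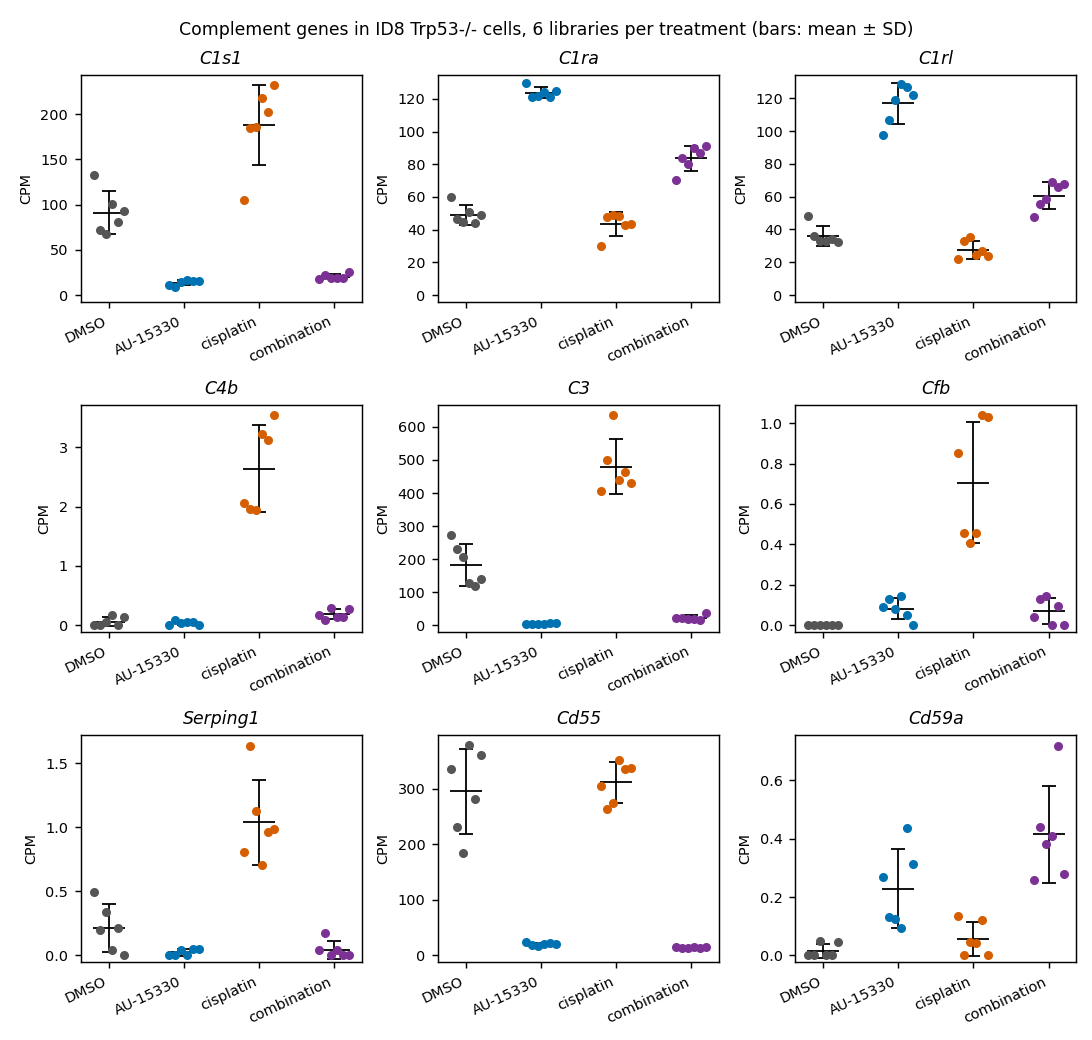
CPM of each complement gene in every library (points), by treatment, with the group mean and SD as bars; the vertical scale differs between panels. C1ra and C1rl are highest with AU-15330, at 121 to 130 and 97.4 to 129 CPM, whereas C3 falls to 2.60 to 5.64 CPM there and reaches 407 to 635 CPM with cisplatin.

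Counts of calls are read against the share of all tested genes called, since these treatments changed much of the transcriptome. Cisplatin against DMSO changed 5 of the 7 tested complement genes and 51.7% of all tested genes. Of the 5, 4 were higher and 1 lower, where 26.0% of all genes were called higher and 25.7% lower. AU-15330 against DMSO changed 6 of 7 with a background of 73.4%, and 2 were higher (background 36.2%) and 4 lower (37.2%). The combination changed all 7 tested genes against cisplatin with a background of 68.1%, and 2 were higher (35.4%) and 5 lower (32.7%). C1ra and C1rl were the genes called higher in both of the last comparisons.

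The combination changed 6 of 7 against AU-15330 (background 41.7%), with 3 higher (22.2%) and 3 lower (19.5%), and 7 of 7 against DMSO (73.3%), with 3 higher (36.8%) and 4 lower (36.5%). AU-15330 and cisplatin differed in 7 of 7 (73.1%), with 2 higher (35.8%) and 5 lower (37.3%) in AU-15330. The libraries of the groups did not overlap for 3 of the 7 genes between cisplatin and DMSO, where 24% of all tested genes did not overlap, for 5 between AU-15330 and DMSO (49.9%) and for 7 between the combination and cisplatin (50.2%). They did not overlap for 5 between the combination and AU-15330 (29.6%), for 4 between the combination and DMSO (49.5%) and for 7 between AU-15330 and cisplatin (57.4%). The median log2 fold change of the 7 was 1.05 with cisplatin, −2.73 with AU-15330 and −3.81 for the combination against cisplatin, and the median over all tested genes was −0.0041, −0.0030 and 0.039. C4b and Serping1 passed the filter on low counts only through the cisplatin group, so they had to differ between groups, and these counts and medians describe the genes that passed and support nothing more. Comparisons that share a group share its 6 libraries and are not independent of each other.

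**Figure D2:**
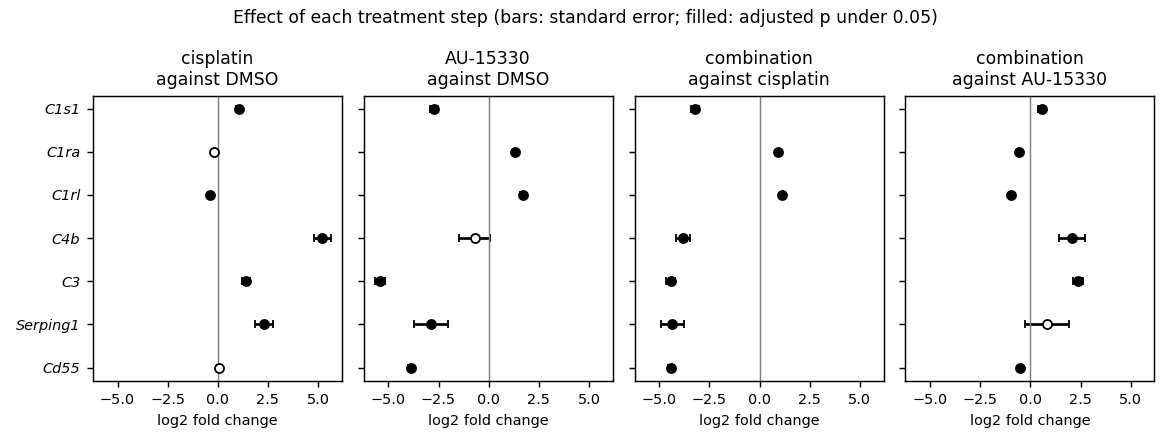
Log2 fold change of the 7 tested complement genes in 4 comparisons; bars are standard errors and filled points passed an adjusted p under 0.05. C1ra and C1rl lie above 0 with AU-15330 and in the combination against cisplatin, at 0.94 to 1.70, and the other 5 genes lie below 0 in both panels.

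Promoter sequences are shown for the tested genes with counts in every library, C1s1, C3 and Cd55 on the side that fell with AU-15330 and C1ra and C1rl on the side that rose. They are the 250 bases before the RefSeq start in GRCm38.p6, 5′ to 3′ on the gene's strand, and 6 of the 9 genes matched an entry. The RefSeq start of C1ra lies inside the gene as GENCODE draws it, so that window overlaps the annotated gene. Capitals mark matches to a C/EBP motif, TTGCNNAA on either strand.
C3, chr17:57228137-57228386, minus strand: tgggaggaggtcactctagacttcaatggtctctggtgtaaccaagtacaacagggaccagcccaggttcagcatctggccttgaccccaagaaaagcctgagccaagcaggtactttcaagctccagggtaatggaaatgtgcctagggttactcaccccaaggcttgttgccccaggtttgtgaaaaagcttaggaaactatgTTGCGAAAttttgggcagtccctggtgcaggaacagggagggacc
C1s1, chr6:124542360-124542609, minus strand: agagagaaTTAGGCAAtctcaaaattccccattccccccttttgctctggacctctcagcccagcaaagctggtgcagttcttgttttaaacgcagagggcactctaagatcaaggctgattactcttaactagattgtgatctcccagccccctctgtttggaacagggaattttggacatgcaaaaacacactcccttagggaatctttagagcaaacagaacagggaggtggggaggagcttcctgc
Cd55, chr1:130462745-130462994, minus strand: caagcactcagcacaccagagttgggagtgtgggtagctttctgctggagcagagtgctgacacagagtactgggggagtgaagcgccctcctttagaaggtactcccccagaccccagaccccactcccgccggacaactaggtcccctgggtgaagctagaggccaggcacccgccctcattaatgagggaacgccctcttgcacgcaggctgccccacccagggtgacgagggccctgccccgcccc
C1ra, chr6:124512371-124512620, plus strand: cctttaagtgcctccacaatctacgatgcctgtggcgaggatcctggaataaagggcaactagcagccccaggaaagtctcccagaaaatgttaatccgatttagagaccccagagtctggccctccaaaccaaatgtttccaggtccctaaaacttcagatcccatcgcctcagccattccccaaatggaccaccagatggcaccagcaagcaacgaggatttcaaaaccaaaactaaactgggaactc
C1rl, chr6:124492863-124493112, plus strand: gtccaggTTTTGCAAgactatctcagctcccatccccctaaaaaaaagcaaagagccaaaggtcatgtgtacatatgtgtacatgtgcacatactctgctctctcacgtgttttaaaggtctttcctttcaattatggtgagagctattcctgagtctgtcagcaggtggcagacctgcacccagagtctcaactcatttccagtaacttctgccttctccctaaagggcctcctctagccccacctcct

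A C/EBP match lay 45 to 38 bases before the start of C3, 242 to 235 bases before that of C1s1 and 243 to 236 bases before that of C1rl, and C1ra and Cd55 held none. Of 32851 promoters of this length, 9.56% held the motif. The windows were also searched for AP-1 (TGANTCA), a GAS element (TTCNNNGAA), an ISRE (TTTC, any 2 bases, TTTC) and an NF-kB motif on both strands, and for a TATA box (TATAAA) on the gene's strand, which 6.75%, 7.02%, 2.98%, 7.25% and 7.59% of all promoters held. None of these was found in the 5 windows printed. The remaining matched gene, Cd59a, held an ISRE match 187 to 178 bases before its start. A match is a description of letters, and genes with a C/EBP match stood on both sides of the response to AU-15330.

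C1s1 encodes C1s, the protease that cleaves C4 and C2. Its level in DMSO-treated cells was 67.1 CPM in the lowest library, 86.9 at the median and 133 in the highest, and with AU-15330 it was 9.21, 14.7 and 16.4 CPM. Cisplatin-treated cells had 105, 194 and 232 CPM, and the combination 17.4, 18.9 and 25.6 CPM. The order was thus cisplatin, DMSO, combination, AU-15330, and the only neighbours in it whose libraries overlapped were cisplatin and DMSO, through replicate 1 of each. C1s1 rose with cisplatin (log2 fold change 1.05, SE 0.168, adjusted p = 1.07e-05) and fell with AU-15330 (−2.73, SE 0.183, adjusted p = 5.38e-13), a 6.62-fold lower level. The combination was 9.24-fold below cisplatin (−3.21, SE 0.184, adjusted p = 2.75e-14) and 1.48-fold above AU-15330 (0.57, SE 0.179, adjusted p = 0.0129). That last difference was not called without replicate 2, where it was 0.44 with an adjusted p of 0.0745.

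C1ra encodes C1r, the protease that activates C1s, and it did the reverse. DMSO libraries held 43.9, 47.6 and 60.1 CPM (lowest, median and highest) and AU-15330 libraries 121, 123 and 130 CPM. The values with cisplatin were 29.7, 45.4 and 49.1 CPM, and with the combination 70.1, 85.4 and 91.2 CPM. Every library with AU-15330, alone or combined, lay above every library without it, and the combination lay between AU-15330 and the others with no overlap. C1ra was 2.52-fold higher with AU-15330 (1.34, SE 0.0961, adjusted p = 2.22e-12) and 1.92-fold higher in the combination than with cisplatin (0.94, SE 0.0956, adjusted p = 2.20e-09). It was lower in the combination than with AU-15330 alone (−0.56, SE 0.0942, adjusted p = 2.95e-05). Cisplatin and DMSO, the neighbours at the bottom of the order, did not differ beyond their spread (−0.17, SE 0.0956, adjusted p = 0.134).

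C1rl encodes a C1r-like serine protease and followed C1ra. It measured 32.3, 33.7 and 48.2 CPM in DMSO, 97.4, 121 and 129 CPM with AU-15330, 21.7, 25.7 and 35.5 CPM with cisplatin, and 47.7, 62.1 and 68.9 CPM with the combination. AU-15330 libraries stood clear of all others, and DMSO replicate 1 reached into the range of the combination. AU-15330 raised C1rl 3.24-fold (1.70, SE 0.122, adjusted p = 2.14e-12), and the combination was 2.20-fold above cisplatin (1.14, SE 0.121, adjusted p = 5.82e-09). Cisplatin lowered it, alone (−0.38, SE 0.121, adjusted p = 0.0101) and on top of AU-15330 (−0.94, SE 0.119, adjusted p = 5.73e-07). The fall with cisplatin alone was not called in replicates 1 to 3 taken on their own (−0.38, adjusted p = 0.127).

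Because C1r and C1s act as a pair, their levels were also compared per kilobase of exon within each library. The ratio of C1s1 to C1ra was 1.44 to 2.10 in DMSO (1.75 ± 0.255, SD, n = 6) and 3.38 to 5.13 with cisplatin (4.10 ± 0.657). It was 0.0723 to 0.126 with AU-15330 (0.106 ± 0.0219) and 0.200 to 0.267 with the combination (0.232 ± 0.0269). C1s1 thus exceeded C1ra per kilobase in every library without AU-15330 and lay below it in every library with AU-15330. The 4 groups did not overlap.

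C1ra, C1rl and C1s1 are neighbours. In mm10 (GENCODE vM21) C1rl spans bases 124493113 to 124510643 of chromosome 6 and C1ra 124512405 to 124523443, both on the plus strand, and C1s1 spans 124530345 to 124542359 on the minus strand. The 3′ ends of C1ra and C1s1 thus face each other across 6901 bases, and 1761 bases lie between C1rl and C1ra. The gene copies C1rb (124570294 to 124581171, plus strand) and C1s2 (124624625 to 124636085, minus strand) follow within a cluster of 143 kb.

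The copies fell with AU-15330. C1rb had 6.42, 7.26 and 9.49 CPM (lowest, median and highest) in DMSO and 0.270, 0.404 and 0.572 CPM with AU-15330 (−4.22, SE 0.284, adjusted p = 5.27e-13), and C1s2 had 15, 19.5 and 25.7 CPM against 0.370, 0.445 and 0.522 CPM (−5.47, SE 0.230, adjusted p = 3.19e-17). Between the combination and cisplatin the log2 fold changes were −4.30 and −5.82. C1ra and C1rb therefore moved in opposite directions although they are close copies, and the 2 genes that rose, C1rl and C1ra, lie side by side at an end of the cluster. Of the 6 other tested genes within 100 kb, Clstn3 (−4.13) and Ptpn6 (−2.63) fell more than 2-fold with AU-15330, Pex5 (−0.97), Lpcat3 (−0.65) and Emg1 (−0.32) fell less, and Phb2 (−0.15, adjusted p = 0.124) was not called. These 6 were taken for their position and not for any link to complement.

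**Figure D3:**
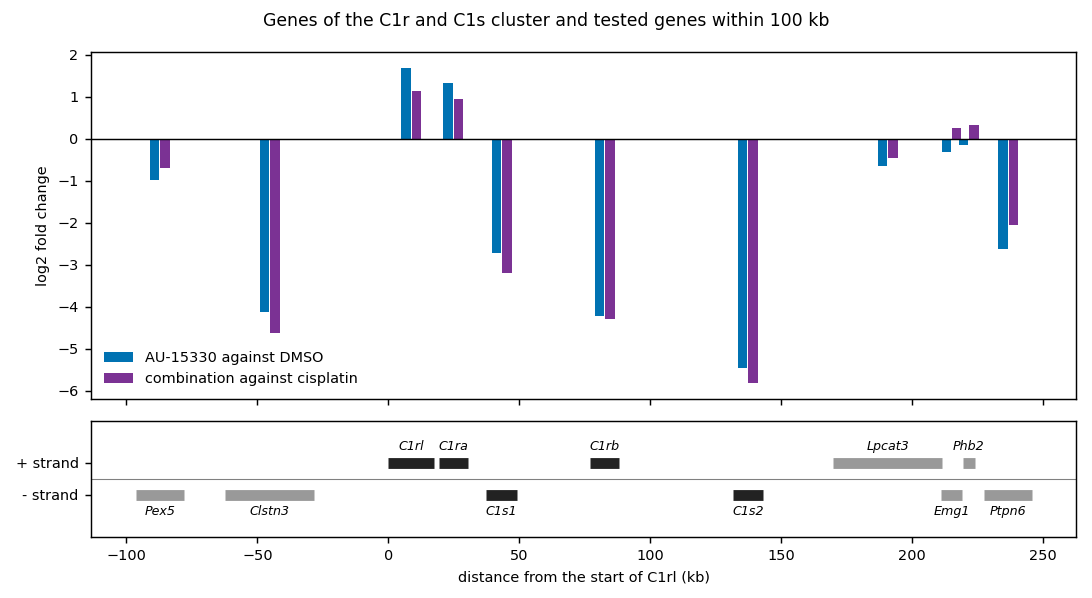
Upper panel, log2 fold change of the genes of the C1r and C1s cluster and of the tested genes within 100 kb, for AU-15330 against DMSO and the combination against cisplatin; lower panel, the genes by strand and distance in kb from the start of C1rl, cluster genes in black. C1rl and C1ra have positive bars between genes whose bars reach −4.13 on the left and −5.47 on the right with AU-15330.

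How the counting dealt with reads that fit more than a single gene is not given in the sources used here, so values of copies are uncertain. Windows of 70 bases, the read length, shared word for word with the copy made up 41.4% of the longest transcript of C1ra (with C1rb), 16.3% of that of C1s1 (with C1s2) and 25.5% of that of C4b (with C4a). With the counts of each pair summed, C1ra with C1rb still rose with AU-15330 (1.13, adjusted p = 1.64e-10) and in the combination against cisplatin (0.79, adjusted p = 1.19e-07), and C1s1 with C1s2 still fell (−2.96, adjusted p = 2.75e-14, and −3.31, adjusted p = 4.01e-15). Annotated antisense transcripts overlap 18.4% of the exon bases of C1s1 and 2.10% of those of Cd55. The library kit keeps strand, but the strand setting of the counting is not given in the sources used here.

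C4b encodes complement C4, the substrate of C1s, and lies at bases 34728380 to 34743882 of chromosome 17, minus strand. It was almost silent without cisplatin. DMSO libraries held 0 to 4 counts, 8 in all 6 together, and AU-15330 libraries 0 to 2, 5 in all. Cisplatin-treated libraries held 43 to 86 counts (374 in all, 1.94 to 3.54 CPM), and the combination held 2 to 6 counts, 24 in all. The cisplatin group stood clear of the 3 others, which overlapped each other, and within it replicates 1 to 3 held 1.94 to 2.06 CPM and replicates 4 to 6 held 3.12 to 3.54 CPM. Summed over the group, C4b was 40.0-fold higher with cisplatin than with DMSO (95% exact counting interval 20.1 to 93.4), and the combination was 14.6-fold below cisplatin (9.66 to 23.1). Such intervals cover counting error only. Since C4b passed the filter only through the cisplatin group, its tests are taken from a fit without the filter (20428 genes), in which these log2 fold changes were 5.18 (SE 0.432, adjusted p = 3.70e-11) and −3.84 (SE 0.362, adjusted p = 1.42e-10).

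The lower end of C4b was not resolved. In the fit without the filter, AU-15330 and DMSO differed by −0.72 (SE 0.787, adjusted p = 0.469), the combination was above AU-15330 (2.06, adjusted p = 0.0167), and the combination against DMSO was not called (1.34, adjusted p = 0.0600). With the filter both values of the combination were called (2.10, adjusted p = 0.0111, and 1.39, adjusted p = 0.0387), but the former call was then lost without replicate 6 (1.73, adjusted p = 0.0538) and the latter without replicate 1, 2, 3 or 5 (adjusted p = 0.0570 to 0.134), and without replicate 4 the latter was 2.08. The copy C4a, annotated as a processed transcript at bases 34809092 to 34823464, was more abundant in these groups, with 0.431, 1.09 and 1.75 CPM in DMSO and 2.61, 3.22 and 4.10 CPM with AU-15330 (lowest, median and highest; 1.55, SE 0.245, adjusted p = 3.02e-06). In fits with the filter, summing C4a and C4b turned the AU-15330 difference to 1.49 (adjusted p = 6.73e-06) and that of the combination against AU-15330 to −0.59 (adjusted p = 0.0423), and it left cisplatin above DMSO by 1.86 (adjusted p = 5.83e-07) and the combination below cisplatin by −0.96 (adjusted p = 0.000588). The difference between AU-15330 and cisplatin moved from −5.91 to −0.37 with this sum and was no longer called (adjusted p = 0.135).

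C3 encodes the component on which all pathways converge, and lies at bases 57203970 to 57228136 of chromosome 17, minus strand. DMSO libraries held 119 CPM at the lowest, 174 at the median and 274 at the highest, and cisplatin libraries held 407, 451 and 635 CPM. With AU-15330, 2.60, 4.35 and 5.64 CPM remained, from 59 to 116 counts a library, and with the combination 16, 20.02 and 36.4 CPM. The 4 groups did not overlap. C3 rose 2.62-fold with cisplatin (1.39, SE 0.202, adjusted p = 2.68e-06), and AU-15330 lowered it 42.5-fold (−5.41, SE 0.252, adjusted p = 2.80e-16). The combination was 21.6-fold below cisplatin (−4.43, SE 0.231, adjusted p = 3.94e-15) and 5.15-fold above AU-15330 (2.36, SE 0.236, adjusted p = 1.50e-08), and it stayed 8.26-fold below DMSO (−3.05, SE 0.218, adjusted p = 1.99e-12). C3 therefore rose with cisplatin both with and without AU-15330, from a much lower level in the former case.

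DMSO replicates fell into sets for C3: 207 to 274 CPM in replicates 1 to 3 and 119 to 140 CPM in replicates 4 to 6. With AU-15330 the order was opposite, also without overlap, at 2.60 to 4.32 and 4.39 to 5.64 CPM, whereas the sets overlapped with cisplatin and with the combination. The same sets were also without overlap for C1s1 with AU-15330 and with cisplatin, and for C1rl with AU-15330 and with the combination. So they were for C1ra with the combination and for Cd55 and C4b with cisplatin. The labels give no batch. Fitted in replicates 1 to 3 alone, cisplatin raised C3 by 1.11 and AU-15330 changed it by −6.11; in replicates 4 to 6 alone, the values were 1.77 and −4.64. All 4 were called, so the direction held in each set while the size differed.

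Cfb encodes factor B, the protease of the alternative pathway, and lies at bases 34856374 to 34862518 of chromosome 17, minus strand. It had too few counts for the filter. It was at 0 in all 6 DMSO libraries, at 0 to 3 counts with AU-15330 (11 in all), at 9 to 26 with cisplatin (100 in all) and at 0 to 3 with the combination (9 in all). As with C4b, cisplatin libraries alone stood apart. Set against 3 counts over the DMSO group, Cfb was at least 28.5-fold higher with cisplatin, and the combination was 10.4-fold below cisplatin (95% exact counting interval 5.27 to 23.4). In the fit without the filter, cisplatin against DMSO and the combination against cisplatin were called, with adjusted p = 3.33e-07 and 9.70e-06. With AU-15330 the 11 counts gave at least 3.38-fold over DMSO (adjusted p = 0.00489 without the filter), and with the combination the 9 counts gave at least 2.74-fold. A longer annotated transcript unit on the same strand, Gm20547, covers 79.5% of the exon bases of Cfb and has no row of its own in the table.

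Among the regulators, Serping1 encodes C1 inhibitor, which inactivates C1r and C1s, and lies at bases 84765387 to 84775444 of chromosome 2, minus strand. It held 0 to 8 counts a library in DMSO (24 in all), 0 to 1 with AU-15330 (3 in all), 17 to 36 with cisplatin (144 in all, 0.702 to 1.64 CPM) and 0 to 4 with the combination (6 in all). Only cisplatin libraries were clear of the rest. Summed over the group it was 5.14-fold higher with cisplatin than with DMSO (95% exact counting interval 3.32 to 8.28), 8.68-fold lower with AU-15330 than with DMSO (2.64 to 45.0) and 22.5-fold lower in the combination than with cisplatin (10.1 to 62.3). Serping1 also passed the filter only through cisplatin, and in the fit without the filter all 3 were called, with adjusted p = 0.000371, 0.00383 and 2.78e-07. With the filter, the fall with AU-15330 was not called in replicates 4 to 6 taken alone (adjusted p = 0.399). The combination was below DMSO without the filter (−2.09, adjusted p = 0.0171). With it the value was −2.02, a call lost without replicate 1, 3 or 5 (adjusted p = 0.0599 to 0.101), and without replicate 2 it was −3.12, while that of the combination against cisplatin moved from −4.34 to −5.25.

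Cd55 encodes decay-accelerating factor, which takes apart the enzymes that cleave C3, and lies at bases 130439027 to 130462744 of chromosome 1, minus strand. It was abundant, and every library with AU-15330, alone or combined, lay below every library without it. DMSO libraries held 185, 308 and 378 CPM (lowest, median and highest) and cisplatin libraries 263, 321 and 351 CPM, within the range of DMSO. With AU-15330 it held 17.1, 20.4 and 24.2 CPM, and with the combination 13.9, 14.2 and 15.6 CPM. AU-15330 lowered Cd55 14.5-fold (−3.86, SE 0.143, adjusted p = 2.68e-18) and the combination was 21.6-fold below cisplatin (−4.43, SE 0.147, adjusted p = 6.03e-19). The combination was also below AU-15330 with no overlap (−0.50, SE 0.135, adjusted p = 0.00453). Cisplatin against DMSO gave 0.08 (SE 0.126, adjusted p = 0.641). Among the 7 tested genes, Cd55 was thus the one in which cisplatin was not called while AU-15330 changed the level more than 10-fold. The low-level gene Cfi and the copy C1s2 did likewise (cisplatin 0.54, adjusted p = 0.157, and −0.20, adjusted p = 0.294). So did C2 (cisplatin 1.71, adjusted p = 0.0589), but by a rise with AU-15330 (5.31). C2 passed the filter only through libraries with AU-15330. Of the longest transcript of Cd55, 8.09% was shared with the copy Cd55b, and summing both left the Cd55 values as they were (−3.86 and −4.43).

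Cd59a encodes a membrane protein that blocks assembly of the membrane attack complex, and lies at bases 104095801 to 104115354 of chromosome 2, plus strand. Its counts were low and rose with AU-15330: 0 to 1 a library in DMSO (2 in all), 0 to 3 with cisplatin (8 in all), 2 to 9 with AU-15330 (29 in all) and 6 to 15 with the combination (54 in all). Libraries with AU-15330 overlapped those with cisplatin alone, whereas the combination lay above both groups without AU-15330. The combination was 7.20-fold above cisplatin (95% exact counting interval 3.41 to 17.5) and AU-15330 13.4-fold above DMSO (3.38 to 116), with adjusted p = 0.000130 and 0.000322 in the fit without the filter. Cd55 was thus lower and Cd59a higher with AU-15330.

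Levels of different genes can be compared per kilobase of exon. In DMSO the group means were 60.9 CPM per kilobase for Cd55, 35.6 for C3, 29.1 for C1s1, 16.5 for C1ra and 12 for C1rl. With cisplatin C3 led at 93.2, followed by Cd55 at 64.1, C1s1 at 60.2, C1ra at 14.6 and C1rl at 9.18. With AU-15330 the order turned over, with C1ra at 41.5 and C1rl at 38.8 above C1s1 at 4.40, Cd55 at 4.20 and C3 at 0.842. The combination had the same leaders at 28.1 and 20.2, followed by C1s1 at 6.51, C3 at 4.31 and Cd55 at 2.97.

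The interaction tests whether the effect of AU-15330 in cisplatin-treated cells differed from its effect in DMSO-treated cells. It was called for 5 of the 7 tested genes, where 33.7% of all tested genes were called, with 1 higher (17.9%) and 4 lower (15.8%). C4b and Serping1 passed the filter only through the cisplatin group, so this count describes the genes that passed and supports nothing more. For C3 the effect was smaller with cisplatin present (interaction 0.98, SE 0.306, adjusted p = 0.0154), and so was the rise of C1ra (−0.39, SE 0.134, adjusted p = 0.0257, not called with C1rb summed in, at −0.34 and adjusted p = 0.0687) and of C1rl (−0.56, SE 0.169, adjusted p = 0.0122). For Cd55 the fall was larger (−0.57, SE 0.184, adjusted p = 0.0182), and for C4b, with 8 counts over the DMSO group, the interaction was −3.10 (SE 1.09, adjusted p = 0.0288) and −3.12 without the filter (adjusted p = 0.0380). C1s1 (−0.48, adjusted p = 0.131) and Serping1 (−1.48, adjusted p = 0.500) were not called. Each of the 5 calls was lost in at least 1 fit without a replicate number, with 1 of the 7 genes called without replicate 2, 2 without replicate 3 and 2 without replicate 5. The share of all tested genes called in those smaller fits is not given here, so these counts cannot be set against a background. All 5 interactions kept their sign in the 6 fits without a replicate number, with values of 0.77 to 1.23 for C3, −0.51 to −0.35 for C1ra, −0.73 to −0.46 for C1rl, −0.63 to −0.51 for Cd55 and −3.72 to −2.39 for C4b. C1s1 was called without replicate 1 (−0.77, adjusted p = 0.00288). In replicates 4 to 6 alone the C3 interaction was 0.38 (adjusted p = 0.374), against 1.45 in replicates 1 to 3 (adjusted p = 0.00316), and that of C1s1 was −0.85 (adjusted p = 0.000721), against −0.11 (adjusted p = 0.898).

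A list of 52 further complement genes was taken by role, and 18 had enough counts to test. Cisplatin raised 5 and lowered 6 of the 18, AU-15330 raised 9 and lowered 8, and the combination against cisplatin raised 8 and lowered 8. Calls over all tested genes were 26.0% higher and 25.7% lower, 36.2% and 37.2%, and 35.4% and 32.7% in these comparisons. C2 passed the filter on low counts only through libraries with AU-15330, Cfi only through DMSO and cisplatin libraries and Cd93 mainly through cisplatin, so the counts and medians describe the genes that passed. Their median log2 fold changes were 0.12, 0.12 and 0.36, beside −0.0041, −0.0030 and 0.039 over all tested genes. The combination against AU-15330 raised 4 and lowered 4, beside 22.2% and 19.5% of all tested genes.

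**Figure D4:**
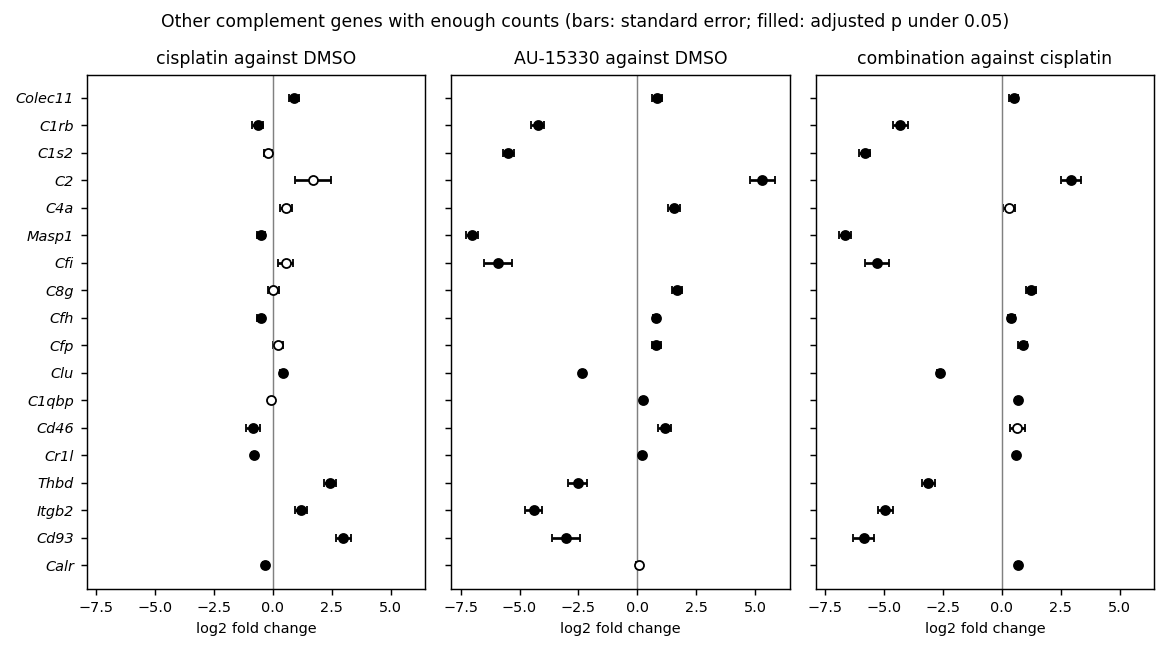
Log2 fold change of the 18 other complement genes with enough counts, in 3 comparisons, ordered by role; bars are standard errors and filled points passed an adjusted p under 0.05. With AU-15330 the proteases Masp1, C1s2 and C1rb lie at −7.00, −5.47 and −4.22, and C2 lies at 5.31.

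Among proteases and convertase subunits, 6 of 8 were tested, and AU-15330 lowered 4 and raised 2. Masp1, a protease of the lectin pathway, held 121, 172 and 271 CPM in DMSO (lowest, median and highest) and 1.01, 1.22 and 2.7 CPM with AU-15330 (−7.00, SE 0.254, adjusted p = 1.90e-18), and the combination against cisplatin gave −6.66. Cfi, the protease that inactivates C3b, fell from 257 counts over the DMSO group to 4 with AU-15330 (−5.94 in the fit without the filter, SE 0.585, adjusted p = 3.00e-10). C2, the protease subunit that joins C4, did the opposite, with 5 counts over the DMSO group and 242 with AU-15330 (5.29 in that fit, SE 0.520, adjusted p = 2.73e-10), and the combination was 2.91 above cisplatin (SE 0.421, adjusted p = 6.84e-07). C2 lies next to Cfb on chromosome 17, at bases 34862604 to 34898265, and its level was 0.945 to 2.48 CPM with AU-15330 and 0 to 0.289 CPM with cisplatin, whereas Cfb had its counts mostly with cisplatin.

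Of 12 soluble regulators, 4 were tested. Clusterin (Clu), a secreted chaperone that binds terminal components, led them per kilobase of exon (mean 676 CPM per kilobase in DMSO), with 2007 to 3183 CPM in DMSO and 380 to 561 CPM with AU-15330 (−2.34, SE 0.118, adjusted p = 1.49e-15), and the combination against cisplatin gave −2.62. Of the terminal pathway only C8g was tested, and AU-15330 raised it (1.68, SE 0.211, adjusted p = 8.51e-08), as did the combination against cisplatin (1.23, SE 0.209, adjusted p = 1.07e-05). The other terminal components reached at most 8 counts in any library. Of the recognition molecules only Colec11 was tested, and the others, which include the C1q chains, reached at most 34 counts in a library. C1ra and C1s1 transcripts were thus counted in libraries with few or no counts of the C1q chains.

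Of 5 membrane regulators besides Cd55 and Cd59a, 3 were tested. Thbd, the thrombin receptor thrombomodulin, rose with cisplatin (2.44, SE 0.264, adjusted p = 2.54e-08) and fell with AU-15330 (−2.52, SE 0.408, adjusted p = 4.56e-06) and in the combination against cisplatin (−3.13, SE 0.279, adjusted p = 2.03e-10), and it was 1.83 above AU-15330 in the combination (SE 0.435, adjusted p = 0.00142), a call lost in replicates 1 to 3 alone (1.36, adjusted p = 0.175). Cd46, a cofactor for cleavage of C3b, was higher with AU-15330 (1.16, SE 0.274, adjusted p = 0.000518) at 1.71 to 2.50 CPM, and lower in the combination than with AU-15330 (−1.34, SE 0.275, adjusted p = 0.000348). Of 10 receptors and their subunits, 3 were tested. Calr, the most abundant of them, did not move as C3 did. It held 688 to 1099 CPM in DMSO, 658 to 807 with cisplatin, 892 to 998 with AU-15330 and 1106 to 1281 with the combination. Itgb2, a subunit of complement receptor 3, and Cd93 rose with cisplatin and fell with AU-15330, as C3 did, with log2 fold changes of 1.19 and 3.00 with cisplatin, −4.39 and −3.03 with AU-15330, and −4.94 and −5.86 in the combination against cisplatin. Their levels were low, at most 14.7 CPM for Itgb2 and 5.87 CPM for Cd93, which in the fit without the filter gave 2.97, −3.05 and −5.89. Against DMSO, the combination also raised Colec11 (1.40) and Cfp (1.09), the gene for properdin.

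Lists of genes known to induce complement or to respond with it were counted in the same fit, where cisplatin raised 26.0% and lowered 25.7% of all tested genes and AU-15330 raised 36.2% and lowered 37.2%. Of 13 tested genes of interferon signalling, 7 rose and 1 fell with cisplatin, among them Irf7 (4.75) and Stat2 (2.57), and 6 rose and 3 fell with AU-15330, among them Irf7 (4.30) and Irf9 (2.82). The median log2 fold changes of the 13 were 0.17 and 0.08. Of 17 genes of acute-phase signalling, 5 rose and 4 fell with cisplatin, led by the C/EBP factors Cebpd (−0.91) and Cebpa (−0.78) and by Il1r1 (0.60), and 6 rose and 9 fell with AU-15330, led by the interleukin-6 receptor chain Il6ra (−4.60), Cebpd (−2.84) and Lifr (−1.95); their medians were −0.013 and −0.34. Of 7 tested acute-phase proteins, 2 rose and 2 fell with cisplatin, led by Fgb (3.54), which passed the filter only through the cisplatin group, Lcn2 (−2.47) and Hpx (1.40), and 0 rose and 6 fell with AU-15330, led by Ahsg (−11.84), Hp (−8.96) and Lcn2 (−4.08), with medians of 0.075 and −3.88. Ahsg, Lcn2 and Itih4 passed the filter only through DMSO and cisplatin libraries, and Hp through these and 1 AU-15330 library, so this count and median describe the genes that passed and support nothing more.

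Markers of cell types moved with some of these results. Of 9 markers of mesothelium and of ovarian surface epithelium, from which ID8 cells derive, 8 were tested, and their summed level was 3531 to 5346 CPM in DMSO and 4263 to 4949 CPM with cisplatin, against 1019 to 1151 CPM with AU-15330 and 1224 to 1406 CPM with the combination. Krt19 held 1398 to 2518 CPM in DMSO and 4.15 to 14.4 CPM with AU-15330, whereas Wt1 held 794 to 916 and 490 to 711 CPM. The similar sums of DMSO and cisplatin hid single markers whose libraries did not overlap: with cisplatin Upk3b held 177 to 233 CPM (13.9 to 63.5 in DMSO), Upk1b 88.6 to 106 (18.9 to 38.0), Krt7 4.34 to 5.16 (0.434 to 2.42) and Krt8 481 to 631 (289 to 456). Epcam reached at most 2 counts in any library and was at 0 with AU-15330. Sums over 10 leukocyte markers were 3.45 to 9.53 CPM in DMSO, 0.740 to 1.12 with AU-15330, 12.1 to 15.5 with cisplatin and 0.719 to 1.77 with the combination, and Itgb2 made up 84.4 to 96.7% of the sum in DMSO libraries and 89.4 to 95.3% with cisplatin, but 20.8 to 40.0% with AU-15330 and 0 to 47.4% with the combination. Ptprc, the pan-leukocyte gene, reached at most 5 counts, Adgre1 at most 2 and Tyrobp at most 1.

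Sums over 4 endothelial markers, mostly Pecam1, were 2.87 to 4.28, 0.313 to 0.715, 8.28 to 12.7 and 0.483 to 1.23 CPM in the same order. Over 5 hepatocyte markers they were 4.30 to 31.7, 0.123 to 0.540, 3.10 to 14.4 and 0.130 to 0.727 CPM. Apoa1 made up 84.6 to 98.6% of this sum in DMSO and 71.7 to 89.9% with cisplatin, against 16.7 to 66.7% with AU-15330 and 33.3 to 75.0% with the combination, and Serpina1a was at 0 in every group but DMSO. The part of these shifts in the complement results was not tested.

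The tested genes most like each complement gene over the 24 libraries were ranked by Pearson's r of log2 CPM, as a description in which the points share the 4 treatments. For C3 they were Tgm2 (0.992), Ksr1 (0.989) and Gprc5a (0.989), for Cd55 Tmem184a (0.997), St3gal4 (0.995) and Gprc5c (0.994), and for C1s1 Vav2 (0.987), Kank1 (0.987) and Adamts9 (0.984). C1ra was nearest to Tmem19 (0.978), Mks1 (0.977) and Btrc (0.975), and C1rl to Btrc (0.984), Exoc7 (0.974) and Bbs2 (0.973). C4b was nearest to Slfn2 (0.982), Oas3 (0.975) and Oas2 (0.967), and Serping1 to Podn (0.944), Bst1 (0.928) and Neurl3 (0.923). Among the complement genes themselves r was 0.97 for C1s1 and C3 and for C1ra and C1rl, and −0.89 for C1ra and C1s1.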

How the data were processed

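Poly(A) RNA of ID8 Trp53-/- cells was sequenced in 24 directional libraries (single-end, 70 bases). The authors aligned reads with STAR (version 2.7.1a and mm10 in the submitters' processing notes, which also list DESeq2 1.36.0) and deposited raw read counts for 25229 genes in 2 lanes per library; the counting tool, strand setting and annotation are not given in the sources used here. All 48 columns matched a library, and lanes were summed. With edgeR 4.0.16 in R 4.3.3, counts were scaled by TMM and filtered with filterByExpr (minimum count 10, 12941 genes kept). A fit of 4 group means over the 24 libraries was tested with the quasi-likelihood F test (20 residual degrees of freedom, threshold 0.05 after Benjamini-Hochberg adjustment). Standard errors are the log2 fold change over the square root of F, and log CPM used a prior count of 2. The floor was 3 counts, and intervals are exact at 95%.

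The members and lists were chosen with earlier results of these data known. All 9 genes were described. Other complement genes were named when called with a log2 fold change above 1 in size or when a copy of a member, and list genes as the 3 largest calls, of which 1 gene is not reported here. The script was tested on simulated data. Alternatives, 14 in all, were DESeq2 1.42.0, other scalings, no filter, the replicate number as a block, copies summed, each replicate number left out, and replicates 1 to 3 or 4 to 6 alone. The labels give cisplatin as 750 nM and the study's text another dose; the labels are used here.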

Additional observations from a re-analysis of the deposited data

Results flagged for a closer look

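Libraries that stood apart within a group of 6 were found by Dixon's ratio, the gap to the nearest other library over the full range, at the 95% critical value. C1s1 in cisplatin replicate 1 was 105 CPM against 185 to 232 in the others (ratio 0.627), and C1ra in the same library was 29.7 CPM against 42.9 to 49.1 (0.680). C1rl in DMSO replicate 1 was 48.2 CPM against 32.3 to 35.8 (0.784). C3 in combination replicate 6 was 36.4 CPM against 16 to 22.4 (0.688). Serping1 in combination replicate 2 was 0.175 CPM, from 4 counts, against 0 to 0.0455 (0.741). These are 5 of 28 gene and group pairs checked, where 1.4 would be flagged by chance.

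The interaction in the edgeR fit, which tests whether the effect of AU-15330 differed between cells with and without cisplatin, was called for 5 genes, and each of these calls was lost in at least 1 fit without a replicate number. The interaction was 0.98 for C3 (adjusted p = 0.0154), −0.39 for C1ra (adjusted p = 0.0257), −0.56 for C1rl (adjusted p = 0.0122), −0.57 for Cd55 (adjusted p = 0.0182) and −3.10 for C4b (adjusted p = 0.0288), which had to differ between groups because it passed the filter on low counts only through cisplatin. In replicates 4 to 6 alone the value for C3 was 0.38 (adjusted p = 0.374).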

How the results depend on the processing

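Of 686 log2 fold changes of the 7 tested complement genes under 14 alternatives, 639 kept their direction and their side of the threshold, 38 lost a call, 2 gained it and 7 reversed. Of 98 counts of these genes called, 93 stayed within 1.5 times, as did 87 of 91 counts of the other complement genes. In replicates 1 to 3 alone, complement genes called fell to 3 (6 with all replicates) for the combination against AU-15330 and to 1 (5) for the interaction, and other complement genes called fell to 6 (11) for cisplatin against DMSO, to 4 (8) for the combination against AU-15330 and to 2 (6) for the interaction, in fits with fewer libraries. With a replicate number left out, complement genes called in the interaction ran from 1 to 5. The share of all tested genes called in these fits with fewer libraries is not given here, so such counts cannot be set against a background. Without the filter, 26 other complement genes (17 with it) differed between AU-15330 and cisplatin, with more genes tested (20428 over the table). The share of all genes called in that fit is likewise not given here. Reversed values were not called in at least 1 of the fits compared, except that of C4b with copies summed in the combination against AU-15330. In replicates 1 to 3 alone they were C4b with AU-15330 (1.08) and the interactions of Serping1 (0.16) and C1s2 (0.11). In replicates 4 to 6 alone they were Cd55 with cisplatin (−0.0064), Serping1 in the combination against AU-15330 (−0.89) and the interaction of C1rb (0.23). With copies summed they were C4b with AU-15330 (1.49) and in the combination against AU-15330 (−0.59), where the sum is mostly C4a. With a replicate number left out, the combination against AU-15330 for Serping1 ran from −0.48 to 1.33 and the interaction of C1rb from −0.45 to 0.17. For the other values the cause was not tested.

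Scaling by total counts moved the median of all tested genes by 0.129 (AU-15330 against DMSO) and 0.140 (combination against DMSO) on the log2 scale, and it reversed no complement gene tested. The replicate numbers were not taken as pairs: deviations of same-numbered libraries correlated over 0.1 in 23 of 36 pairs (mean 0.145, range −0.133 to 0.483), and 10 of 24 libraries were closest to their own number. With the replicate number as a block, 0 of 49 results of the 7 genes changed call and the largest move of a log2 fold change was 0.0596. Cd59a and, outside cisplatin, Cfb, C4b and Serping1 are limited by counts of 0 to 15 a library.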
